A study of Mus musculus with 8 samples.

Results

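The ascending aorta of newborn mice that lack fibulin-4 was compared with that of wild-type mice. Of the 8 arrays of the study, 4 entered the comparison and were chosen by their titles: 2 of knockout and 2 of wild-type ascending aorta, the stretch between the aortic valve and the ductus arteriosus. All mice were of strain C57BL/6 and were dissected on the day of birth (p0, postnatal day 0). Each array holds amplified RNA of segments pooled from 8 pups of 1 genotype, so the spread between the arrays of a group is a spread between pools, which the labels call biological replicates. The labels give the knockout as mice lacking the fibulin-4 gene, with no allele, sex or litter. The other 4 arrays hold the descending aorta of the same genotypes, 2 arrays each, and were used for the estimate of the spread and for comparison. The fibulin-4 gene is not analysed here, and no check of the genotypes rests on it.

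Fibulin-4 is a secreted glycoprotein that binds tropoelastin and lysyl oxidase and brings both to the microfibrils on which elastic fibres are assembled and cross-linked. Mice without it die around birth with fragmented elastic laminae and with a widened, tortuous aorta, most of all in its ascending part. Smooth muscle of the ascending aorta comes from the cardiac neural crest and the second heart field, that of the descending aorta from the somites, and both sense wall tension through integrins, focal adhesions and the actin cytoskeleton.

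The deposited values are on a log2 scale, so a difference of 1 is a 2-fold change, and each gene is represented by its probe set with the highest mean, which left 22180 genes. The 4 ascending arrays carried the smooth muscle genes at high values: Acta2, the smooth muscle actin, stood at 12.20 and 12.30 on the wild-type and 12.36 and 12.45 on the knockout arrays, and Tagln, an actin-binding protein, at 10.90 and 10.94 and 11.22 and 11.48. The segment labels were checked with patterning genes: Hand2, a transcription factor of the outflow tract, stood between 6.81 and 7.17 on the ascending and at 5.70 and 5.66 on the wild-type descending arrays, and Hoxb6, a gene of the trunk, at no more than 4.95 on the ascending and no less than 5.39 on the descending arrays. The knockout descending arrays are left out for Hand2, so its values do not check their labels. The median value of an array lay between 4.98 and 5.08 over the 22180 genes. Replicate 2 of both wild-type groups had a narrow interquartile range (1.80 ascending, 1.74 descending), and the remaining 6 arrays had 2.14 to 2.28. On the first principal component, replicate 2 of both wild-type groups stood at 50.3 (ascending) and 52.8 (descending), the remaining 6 arrays between -26.5 and -9.81. Wild-type ascending replicate 1 stood apart on the second principal component (-65.0 against -4.74 to 19.6), so the 2 wild-type ascending arrays each stand apart in their own way. Over all genes these 2 arrays correlated less with each other (Spearman 0.899) than either did with the knockout ascending arrays (0.928 to 0.932). The median standard error (SE) of an ascending difference was 0.30 and the number of arrays limits the precision.

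No gene passed an adjusted p of 0.05 in the ascending aorta: limma, fitted over all 8 arrays with Benjamini-Hochberg adjustment over the 22180 genes, called 0 (0%), and the smallest adjusted p was 0.0780. At an unadjusted p under 0.05 there were 1975 genes (8.9%), of which 1177 (5.31%) were higher and 798 (3.6%) lower in the knockout. Both knockout arrays lay above both wild-type arrays in 4776 genes (21.5%) and below both in 4058 (18.3%). Differences are therefore given as values, and these shares of all genes are the background for the counts of list members. The background also depends on the level: with the genes in 5 equal bins from the dimmest to the brightest, by their mean over the 8 arrays, the median difference went through -0.16, -0.14, -0.06, 0.12 and 0.25. In the same order, the share with an unadjusted p under 0.05 and a higher value in the knockout was 1.67%, 1.35%, 3.16%, 7.84% and 12.5%, and the share with a lower value 6.79%, 5.09%, 3.09%, 1.89% and 1.13%. The share of genes above 0 was 32.7%, 33.6%, 42.9%, 61.9% and 75.5% from the dimmest to the brightest bin. Counts of members above 0 in lists of bright genes therefore have a background nearer the last of these shares. Without wild-type ascending replicate 2 the medians of the dimmest and brightest bin were -0.15 and 0.13, without replicate 1 they were -0.14 and 0.38. The part of this slope in the differences of single genes was not tested. Where leaving out 1 ascending array moved a list median by more than 1.5 times or changed its sign, the value without the array or arrays that moved it most stands beside it, with the array named as replicate 1 or 2 of its group (wild-type 1, knockout 2). Descending medians are given for some lists only, so a list without one is not thereby particular to the ascending aorta.

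**Figure D1:**
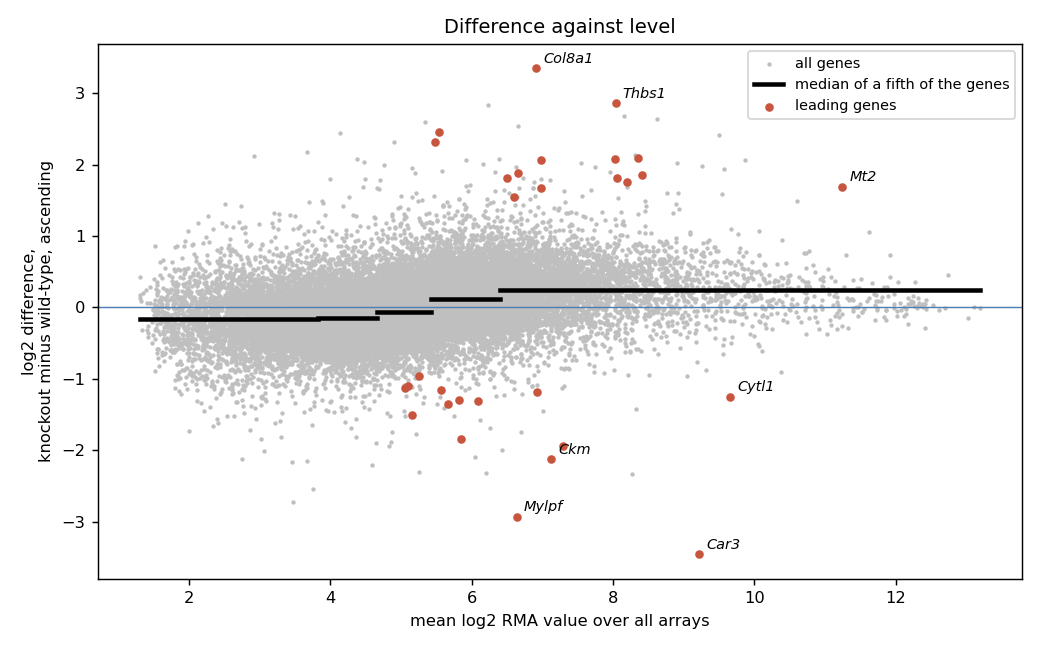
Difference between knockout and wild-type ascending aorta (log2, y axis) against the mean log2 value over the 8 arrays (x axis) for 22180 genes. Black bars mark the median in each of 5 equal bins of genes by level, from -0.16 in the dimmest to 0.25 in the brightest, and red points the leading genes described in the text.

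The genes with the largest differences for their spread were led by collagens, matrix proteins and receptors of the cell surface. Col8a1, a network-forming collagen that activated smooth muscle and endothelial cells lay down, stood at 5.04 and 5.14 on the wild-type arrays and at 8.22 and 8.65 on the knockout arrays. The groups lay far apart, with a log2 difference of 3.35 (SE 0.35), or 10.2-fold, and the smallest adjusted p of all genes (limma, 0.078). Thbs1, thrombospondin 1, a matrix protein that releases latent TGF-beta and responds to wall stress, stood at 6.74 and 7.10 in wild-type and 9.50 and 10.05 in knockout (difference 2.86, SE 0.36). Col12a1, a collagen that sits on the surface of collagen fibrils and is made under tension, stood at 6.95 and 7.15 and 8.87 and 8.95 (1.86, SE 0.25), and Col11a1, a minor fibrillar collagen known from cartilage, at 5.37 and 5.11 and 7.14 and 6.97 (1.82, SE 0.26). In these 4 genes the 2 arrays of a group differed by at most 0.55, the gap between the knockout arrays for Thbs1.

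Among receptors and signals of this leading group, Itga5, the alpha subunit of the fibronectin receptor, stood at 7.56 and 7.35 in wild-type and 9.0 and 9.42 in knockout (1.76, SE 0.27). Hbegf, a membrane-bound ligand of the EGF receptor, stood at 5.84 and 6.19 and 7.75 and 8.03 (1.88, SE 0.29). Vegfd, a growth factor for lymphatic and blood vessels, stood at 6.43 and 6.66 and 8.75 and 8.54 (2.10, SE 0.26). Both knockout arrays lay above both wild-type arrays by more than 1 in all 3 genes. Ptgs2, the inducible cyclooxygenase that makes prostaglandins, had 4.73 and 4.99 in wild-type, and its knockout arrays, at 6.81 and 7.82, differed from each other by 1.01 (difference 2.45, SE 0.34), the widest gap within a group among the 15 higher genes. Plaur, the receptor of the urokinase plasminogen activator, had wild-type arrays at 6.08 and 6.09 and knockout arrays at 7.47 and 7.79 (1.54, SE 0.24). Ddah1, which breaks down an inhibitor of nitric oxide synthase, stood at 1.82 (SE 0.27), Cd109, a cell surface protein that binds TGF-beta, at 2.32 (SE 0.32), and Itgbl1, a secreted protein with integrin-like repeats, at 2.06 (SE 0.29). The protease inhibitor Serpina3n (2.08, SE 0.30), the large scaffold gene Ahnak2 (1.68, SE 0.26) and the metallothionein Mt2 (1.69, SE 0.27), which binds zinc and copper, complete the 15 genes. Their limma adjusted p lay between 0.0780 and 0.124.

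In the descending aorta all 15 genes were higher in the knockout as well, as 53.7% of all genes were, and 13 had an unadjusted limma p under 0.05, where the background is 3.63% of all genes. Both shares cover genes of every level, while the 15 genes were chosen at or above the median level. Descending shares by level were not computed. The descending difference did not rank these genes, but the descending arrays entered the spread behind the ascending p and the level at which genes were ranked, so these counts are not independent of the choice. Col8a1 (3.53), Col11a1 (1.89), Serpina3n (2.44), Ahnak2 (1.53) and Mt2 (1.59) had descending differences close to their ascending ones. The 2 genes without such a p were Ptgs2, with a descending difference of 0.73 (unadjusted p = 0.0582), and Hbegf, with 0.46 (unadjusted p = 0.141). For the difference between segments, limma called 0 of 22180 genes (0%), with 733 (3.3%) at an unadjusted p under 0.05. Ptgs2 had a segment difference of 1.72 (ascending minus descending, unadjusted p = 0.00547), Hbegf of 1.42 (unadjusted p = 0.00638), Ddah1 of 0.99 (unadjusted p = 0.0269) and Vegfd of 0.85 (unadjusted p = 0.0468). These values use the ascending arrays that chose the genes, so they describe the genes and are no separate test.

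Among genes at or above the median level, with predicted genes and receptor families left out, the 8 with the smallest p for the difference between segments each had a limma adjusted p of 1.00 and opposite signs in the segments. The smallest adjusted p over all genes was 0.523, in a gene outside this ranking. Some of the 8 were higher in the knockout ascending and lower in the knockout descending aorta: Msr1, a scavenger receptor of macrophages, stood at 4.41 and 4.84 on the wild-type and 5.87 and 6.22 on the knockout ascending arrays (1.42, SE 0.27) and at 6.21 and 5.86 and 5.62 and 5.68 on the descending ones (-0.38). Stk38l, a kinase of the Hippo family, had 1.63 in the ascending and -0.71 in the descending aorta. Genes with the opposite pattern were Ahcy, which hydrolyses S-adenosylhomocysteine (-0.88 ascending, 1.34 descending), Ttn, the giant muscle protein titin (-1.06 and 1.24), and Ckm and Sct. Ereg and Cxcl13, which complete the 8, are described with their families.

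**Figure D2:**
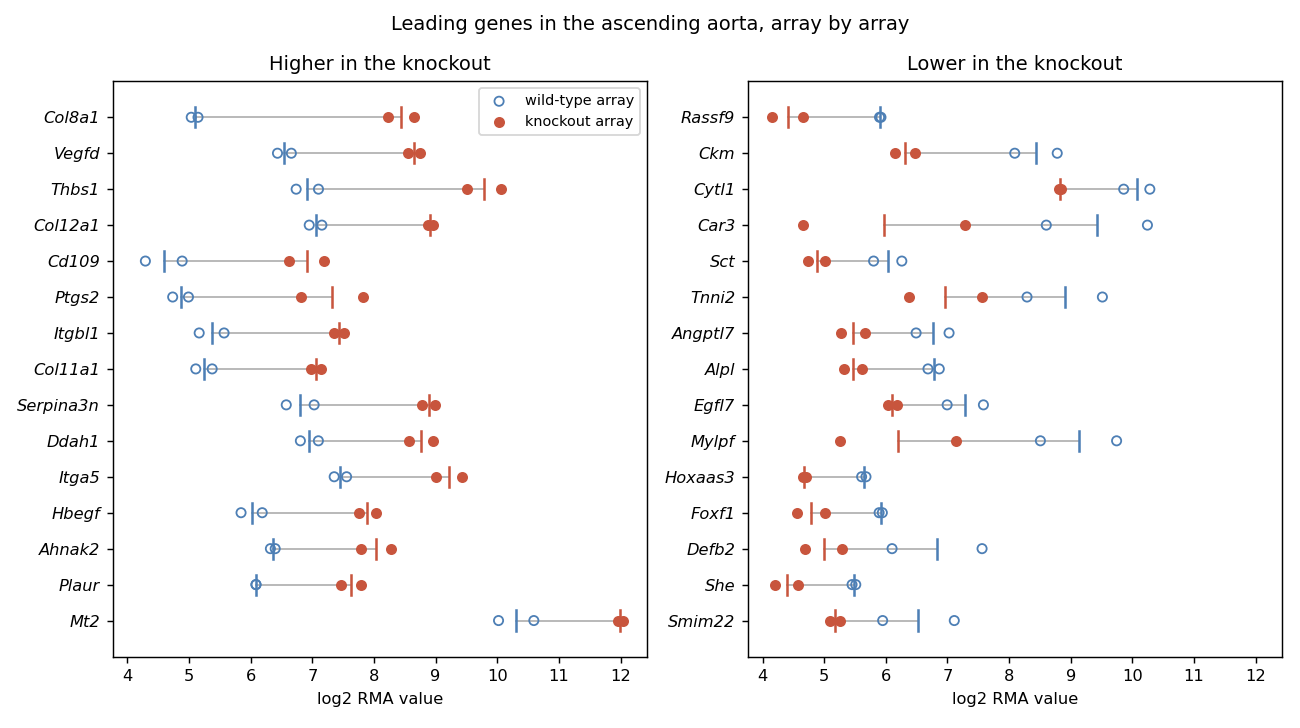
Log2 values of the 15 leading genes higher (left) and the 15 lower (right) in the knockout ascending aorta. Each open blue point is a wild-type and each filled red point a knockout array, and short bars mark the group means. By their choice the groups do not overlap, and Car3 and Mylpf show the widest spread within a group.

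The 15 leading genes with lower values in the knockout were of another kind and less even between arrays, with limma adjusted p between 0.222 and 0.353. Several belong to skeletal muscle: Ckm, the muscle creatine kinase, stood at 8.09 and 8.78 in wild-type and 6.47 and 6.15 in knockout (-2.12, SE 0.42). Mylpf, a myosin light chain of fast fibres, stood at 8.51 and 9.74 and 7.13 and 5.26 (-2.93, SE 0.73), and Tnni2, the fast troponin I, at 8.29 and 9.51 and 7.55 and 6.38 (-1.94, SE 0.46). Car3, a carbonic anhydrase abundant in muscle and fat, had the largest difference, -3.46 (SE 0.77), with 10.24 and 8.60 in wild-type and 7.29 and 4.65 in knockout; the arrays lay 1.64 apart within the wild-type and 2.64 within the knockout group. Cytl1, a secreted protein of chondrocytes and progenitor cells, was high and even, at 10.28 and 9.86 in wild-type and 8.83 and 8.82 in knockout (-1.25, SE 0.26). Egfl7, which endothelial cells secrete, stood at 7.58 and 6.99 and 6.18 and 6.03 (-1.19, SE 0.29), and She, an SH2 adaptor protein, at 5.51 and 5.45 and 4.58 and 4.20 (-1.09, SE 0.29). Foxf1, a transcription factor of visceral and lung mesenchyme, stood at 5.94 and 5.89 and 5.02 and 4.56 (-1.13, SE 0.29). In Foxf1 and She the wild-type arrays lay within 0.06 of each other, and the groups stood well apart. Alpl, the alkaline phosphatase of bone and other tissues that opposes the calcification inhibitor pyrophosphate, stood at -1.30 (SE 0.31), Angptl7, a secreted angiopoietin-like protein, at -1.29 (SE 0.31), and the peptide hormone gene Sct at -1.15 (SE 0.27). Rassf9 had the smallest p of the lower genes (-1.5, SE 0.29, unadjusted p = 4.59e-04). Hoxaas3, a noncoding RNA of the Hoxa cluster, stood at -0.96, the defensin gene Defb2 at -1.84 and Smim22, a small membrane protein, at -1.35.

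In the descending aorta 8 of these 15 genes were also lower in the knockout, as 46.3% of all genes were, and 1 of them, Hoxaas3 (-0.62), had an unadjusted limma p under 0.05, against 2.32% of all genes. These shares, too, cover genes of every level. Ckm was higher in the knockout descending aorta (1.13, unadjusted p = 0.0235), and Mylpf (0.98), Tnni2 (0.58), She (0.50), Sct (0.47), Defb2 (0.46) and Foxf1 (0.14) also stood above 0 there. All 15 leading higher genes thus had the same sign in both segments, and 8 of the 15 leading lower genes did, as values. Whether the lower genes differ in this from the higher ones as a group was not tested.

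**Figure D3:**
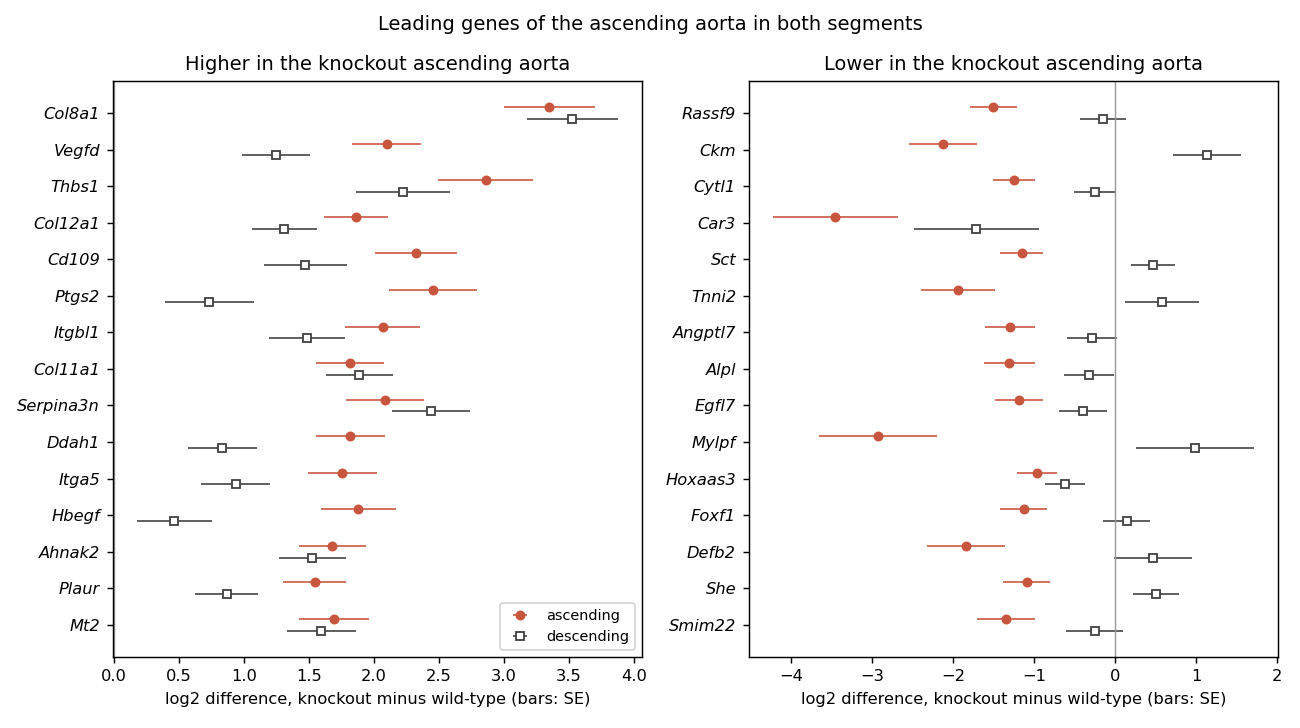
Log2 difference between knockout and wild-type for the 15 genes higher (left) and the 15 lower (right) in the ascending aorta, in the ascending (filled red) and descending (open squares) segment, with bars of 1 SE. All 15 squares on the left lie above 0, from 0.46 for Hbegf to 3.53 for Col8a1, and 7 of 15 on the right do.

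Below the median level, the higher genes with the smallest p were Scgb3a2 (2.31, SE 0.32), a secretoglobin of the airway epithelium, Gdf6 (1.55), a ligand of the BMP family, and 3 genes of myeloid cells: Clec4d (1.80), a lectin receptor, Fcgr4 (1.66), a receptor for IgG, and Il1r2 (2.0), the decoy receptor for interleukin 1. Scgb3a2 stood at 4.70 and 4.11 on the wild-type and 6.41 and 7.02 on the knockout arrays, while Sftpc, the surfactant protein of the lung, had 9.71 and 6.19 and 5.08 and 6.18 (-2.32); the part of lung tissue in these values was not tested. The lower dim genes were Btbd35f27, Cmtm2b, Fbxo39, Crisp3 and Cyp4b1-ps2, with differences from -1.90 to -1.24 at log2 values of at most 5.79.

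Genes of the elastic fibre, in which fibulin-4 works, were not among those with large differences. Of 19 measured members 16 lay above 0, where 49.3% of all genes lie and 50.7% lie below; their median was 0.26 against -0.01 over all genes, and 2 had an unadjusted p under 0.05. Members of this list are bright: their median level is at percentile 96.1, and 16 of the 19 are in the brightest bin. That bin has a median of 0.25 and 75.5% of its genes above 0. In the descending aorta all 19 members lay above 0 (median 0.39). Eln, which encodes tropoelastin, stood at 11.74 and 11.98 on the wild-type and 12.02 and 12.09 on the knockout arrays (0.19, SE 0.24). The groups overlapped in neither of the next 2 genes. Ltbp2, a latent TGF-beta binding protein of microfibrils, stood at 9.01 and 8.66 and 9.71 and 9.67 (0.85, SE 0.25), and Fbn2, the fibrillin of fetal microfibrils, at 7.35 and 7.37 and 7.92 and 8.06 (0.63, SE 0.26). The related fibulins Fbln5 (0.29) and Fbln2 (0.47) stood above 0 without such a p. Among 4 lysyl oxidases, Lox, the enzyme that fibulin-4 recruits, stood at 10.31 and 10.53 and 11.11 and 11.32 (0.80, SE 0.27, unadjusted p = 0.0143), and Loxl1 and Loxl4 at 0.21 and 0.25.

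Collagen genes divided into a few with large differences and many near 0. Of 11 fibrillar collagen genes 6 lay above 0 (median 0.13, -0.04 without wild-type 1 and 0.07 without knockout 1), and the main collagens of the vessel wall, Col1a1 (0.37) and Col3a1 (0.13), had small differences beside Col11a1. Of 15 other collagens 10 lay above 0 (median 0.19, 0.02 without wild-type ascending replicate 2), with Col8a1 and Col12a1 the 2 at an unadjusted p under 0.05. Col8a2, the partner chain of Col8a1, stood at 0.27 (SE 0.30), and the basement membrane chains Col4a1 (0.37), Col4a2 (0.46) and Col4a5 (-0.73) in both directions. Collagen-modifying genes lay above 0 in 15 of 18 cases (median 0.41), with 4 higher and 1 lower at an unadjusted p under 0.05. In the descending aorta 16 of the 18 lay above 0 (median 0.71), with 9 higher and 0 lower at such a p. Of the 18 genes 14 are in the brightest bin, which has an ascending median of 0.25. The prolyl hydroxylase P4ha1 stood at 6.26 and 6.04 in wild-type and 7.73 and 7.26 in knockout (1.34, SE 0.31), and the lysyl hydroxylase Plod2, which sets the type of cross-link, at 6.90 and 6.75 and 8.14 and 8.15 (1.32, SE 0.32). Tll1, a protease that trims procollagens, stood at 1.31, while Pcolce2, an enhancer of that trimming, was lower at -0.67.

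Matricellular proteins, which bind matrix and growth factors without building fibres, had 14 of 16 members above 0 and a median of 0.33 (0.22 without knockout 1), with 5 at an unadjusted p under 0.05. Beside Thbs1 these were Thbs2 (0.91), Tnc (0.81), Tgfbi (0.89) and Ccn5 (0.78). Periostin (Postn, 0.13) and Sparc (0.34) had small differences. Of the 16 matricellular genes 13 are in the brightest bin, which has a median of 0.25. The share with such a p was 31.2%, against 12.5% higher in that bin. Of 22 proteoglycan and hyaluronan genes 15 lay above 0 (median 0.20, 0.07 without wild-type 1), with Tnfaip6 (1.12), which modifies hyaluronan in inflamed tissue, Prelp (0.97), the hyaluronan receptor Cd44 (0.80) and the large proteoglycan Acan (0.77) at an unadjusted p under 0.05, all higher. Acan stood at 9.47 and 9.37 on the wild-type and 10.07 and 10.32 on the knockout arrays. Basement membrane genes (12 of 15 above 0, median 0.31) were led by the laminin chain Lamb1 (0.72) and Smoc2 (0.78), the 2 at an unadjusted p under 0.05. Of these 15 genes 13 are in the brightest bin, and their 13.3% with such a p is close to the 12.5% of that bin.

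Matrix proteases had a median of 0.41, with 22 of 28 members above 0, 9 higher and 0 lower at an unadjusted p under 0.05. Ctss, a cathepsin of macrophages that degrades elastin, stood at 7.56 and 7.05 on the wild-type and 8.88 and 8.78 on the knockout arrays (1.53, SE 0.28). Mmp8, the collagenase of neutrophils, stood at 1.25, and Adam19, a membrane-bound sheddase of vascular cells, at 6.47 and 6.47 and 7.40 and 8.19 (1.32, SE 0.35). The gelatinases Mmp2 (9.04 and 9.17 and 9.90 and 9.90, 0.80, SE 0.27) and Mmp9 (0.58) and the urokinase gene Plau (0.79) were also among the 9. Of the inhibitors, Timp1 stood at 8.88 and 7.89 and 9.65 and 9.88 (1.38, SE 0.33), Timp2 at 0.30 and Timp4 at -0.85. Timp1 and Timp4, both inhibitors of the same proteases, thus lay on opposite sides of 0, each with an unadjusted p under 0.05.

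**Figure D4:**
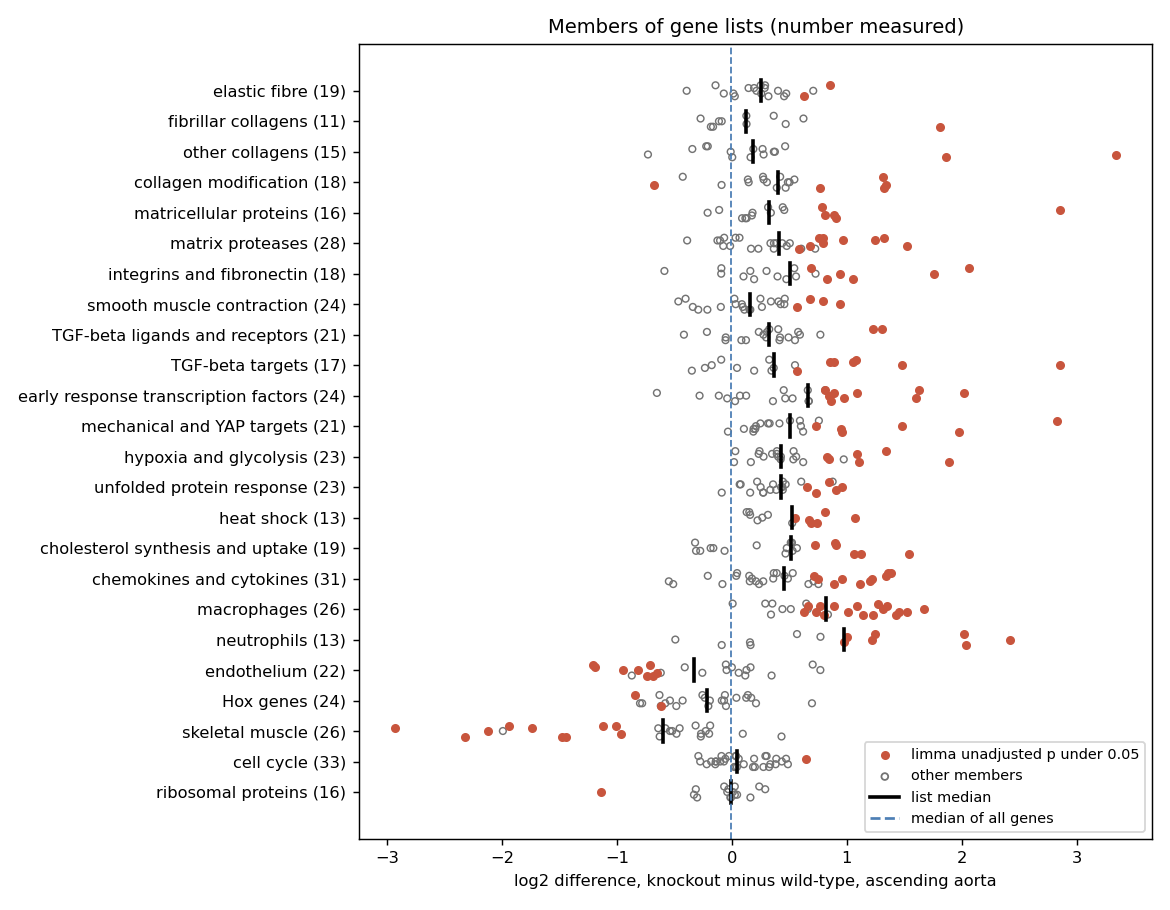
Log2 difference in the ascending aorta for the measured members of 24 gene lists (number in brackets). Red points have an unadjusted limma p under 0.05, black bars are list medians and the dashed line is the median of all genes (-0.01); the macrophage median stands at 0.82 and the skeletal muscle median at -0.60.

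Of 18 integrin genes and integrin ligands 15 lay above 0 (median 0.51), 6 of them higher at an unadjusted p under 0.05, and leaving out wild-type ascending replicate 2 gave a median of 0.25. Itga11, a collagen-binding subunit, stood at 3.95 and 5.08 on the wild-type and 6.67 and 6.49 on the knockout arrays (2.07, SE 0.35). Fn1, which encodes fibronectin, the ligand of Itga5, stood at 10.71 and 11.12 and 11.96 and 11.99 (1.06, SE 0.25), and Itgav, a subunit that can activate latent TGF-beta, at 0.94 (SE 0.27). Itga8, the subunit typical of contractile smooth muscle, stood at 0.16 and Itgb1, the common beta subunit, at 0.54. Of 21 genes of focal adhesions and actin control 20 lay above 0 (median 0.27). Of these genes 16 are in the brightest bin, which has a median of 0.25 and 75.5% of its genes above 0. At an unadjusted p under 0.05, 5 (23.8%) were higher, against 12.5% of that bin. Fhl2 stood at 6.59 and 6.18 and 7.72 and 7.99 (1.48, SE 0.26), vinculin (Vcl) at 1.10, the actin crosslinker Actn1 at 0.77, and the actin-severing protein Cfl2 and its activating phosphatase Ssh2 at 0.79 and 0.75. Fhl2 and Vcl are adaptors between integrins and actin. The contractile genes of smooth muscle differed little: 18 of 24 lay above 0 (median 0.16, 0.28 without wild-type 1), 4 of them at an unadjusted p under 0.05. Of the 24 genes 21 are in the brightest bin, where 75.5% of genes lie above 0. Myh11, the smooth muscle myosin, stood at 8.91 and 8.70 in wild-type and 9.22 and 9.20 in knockout (0.41, SE 0.25), and Cnn1 at 0.26. The 4 members were the enteric actin Actg2 (0.94), the transcription factor Srf (0.79), Cald1 (0.68) and Smtn (0.57). Myocd, the partner of Srf that drives contractile genes, stood at -0.40 (SE 0.28). Of the channel and receptor genes of smooth muscle 11 of 23 lay above 0, with 2 potassium channel genes lower at an unadjusted p under 0.05, Kcna5 (-0.77) and Kcnab1 (-0.68).

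Genes that respond to stretch through the coactivators YAP and TAZ, and the early response transcription factors, mostly lay above 0. Of 21 YAP and mechanical targets 20 lay above 0 (median 0.51), and 6 reached an unadjusted p under 0.05. Ankrd1, a nuclear and sarcomeric stretch sensor, stood at 4.57 and 5.28 on the wild-type and 7.20 and 8.31 on the knockout arrays (2.83, SE 0.50). Ccn1 (8.10 and 9.01 and 10.41 and 10.65, 1.98, SE 0.45) and Ccn2 (9.999 and 10.54 and 11.53 and 11.98, 1.48, SE 0.35), secreted proteins of the CCN family, and F3 (0.96), tissue factor, did not overlap between groups either. YAP acts through TEAD factors, which bind the letters GGAATG. These letters, on either strand, are in the 150 bases before the start of 7.59% of 32851 mouse promoters of RefSeq (GRCm38.p6), and in 7 of the 19 promoters that RefSeq holds for 16 of the 21 targets (36.8%). The list is one of known TEAD targets, so this share describes the list and not the knockout. The promoters of Ankrd1 (chr19:36119845-36119994, minus strand) and Ccn1 (chr3:145649986-145650135, minus strand) are shown because these 2 genes have the largest differences of the list, with the match in capitals.
Ankrd1: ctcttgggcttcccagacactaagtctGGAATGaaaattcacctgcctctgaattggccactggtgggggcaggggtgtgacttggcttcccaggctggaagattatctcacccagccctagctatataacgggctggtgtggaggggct
Ccn1: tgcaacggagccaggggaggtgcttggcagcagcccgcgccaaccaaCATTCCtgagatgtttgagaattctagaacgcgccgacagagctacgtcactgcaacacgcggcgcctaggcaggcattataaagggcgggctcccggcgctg

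Of 24 early response transcription factors 20 lay above 0 (median 0.67) and 9 reached an unadjusted p under 0.05, all higher. Ier3 stood at 6.96 and 6.55 on the wild-type and 8.62 and 8.94 on the knockout arrays (2.02, SE 0.42), Egr1 at 7.31 and 5.88 and 7.94 and 8.51 (1.63, SE 0.52), and Myc at 7.36 and 6.53 and 7.86 and 8.21 (1.09, SE 0.36). Zfp36, which destabilises inflammatory messenger RNAs, stood at 7.76 and 8.15 and 9.42 and 9.69 (1.60, SE 0.37). In the 4 genes the knockout arrays lay above the wild-type arrays, and the widest gap within a group was that of Egr1 in wild-type (1.42). Other members stood lower: Fos had 0.67 (SE 0.43), Jun 0.07, and Klf10 -0.65. Many early response genes hold a CArG box, the site of Srf. On either strand it was found in the 150 bases of 0.916% of all promoters and in 5 of 25 promoters of 19 list members (20.0%). These 5 promoters belong to 2 genes, Egr2 and Zfp36, so the share counts a gene more than once. It describes the list and not the knockout. The promoter of Zfp36 (chr7:28379229-28379378, minus strand) is shown with the box in capitals, beside that of Plaur (chr7:24462333-24462482, plus strand) with the AP-1 letters TGANTCA, to which Fos and Jun proteins bind and which 4.24% of promoters hold. Both were chosen after their matches were seen.
Zfp36: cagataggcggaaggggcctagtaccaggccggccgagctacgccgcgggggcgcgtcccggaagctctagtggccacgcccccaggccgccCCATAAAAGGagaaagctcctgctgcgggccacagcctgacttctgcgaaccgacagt
Plaur: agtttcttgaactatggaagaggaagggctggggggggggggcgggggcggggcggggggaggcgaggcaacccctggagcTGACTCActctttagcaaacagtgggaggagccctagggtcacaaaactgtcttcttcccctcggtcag

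Ligands and receptors of the TGF-beta family had a median of 0.33, with 17 of 21 above 0. Tgfb3 stood at 7.68 and 7.59 on the wild-type and 8.86 and 9.02 on the knockout arrays (1.30, SE 0.25), while Tgfb1 (0.42) and Tgfb2 (0.59) had smaller differences. Lrrc32, which tethers latent TGF-beta to the cell surface, stood at 6.83 and 6.62 and 7.79 and 8.11 (1.23, SE 0.25), and the receptor Tgfbr1 at 0.49. Of 17 target genes 13 lay above 0 (median 0.37, 0.60 without wild-type 1), and the 7 at an unadjusted p under 0.05 were Thbs1, Ccn2, Fn1, Cdkn1a, Tgfbi, Ltbp2 and Tgif1, several of which other pathways also induce. The more specific feedback targets Smad7 (0.33), Skil (0.55) and Pmepa1 (0.35) were not among them. Of the 17 targets 13 are in the brightest bin, which has a median of 0.25. In the BMP and activin list Gdf6 (1.55), Inhba (5.58 and 4.94 and 6.51 and 7.01, 1.5), the subunit of activin A, and its inhibitor Fstl3 (0.63) had an unadjusted p under 0.05.

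Of 11 genes of the EGF receptor family 7 lay above 0 (median 0.33, 0.08 without wild-type 1), and 4 were higher at an unadjusted p under 0.05: Hbegf, the neuregulin Nrg1 (0.67), its receptor Erbb4 (0.65), and Ereg, epiregulin, which stood at 5.10 and 5.07 on the wild-type and 6.27 and 6.48 on the knockout arrays (1.29, SE 0.26). Ereg was not higher in the knockout descending aorta (-0.42), where the arrays stood at 6.41 and 6.02 in wild-type and 5.64 and 5.94 in knockout. Other ligands lay below 0: Tgfa stood at 4.83 and 4.06 in wild-type and 3.41 and 4.05 in knockout (-0.71, SE 0.33), Egf at -0.23 and Btc at -0.12. Egfr itself stood at 0.66. Of 15 feedback genes of the MAP kinase pathway, which lies downstream, 13 lay above 0 (median 0.33, 0.15 without wild-type 2) and 4 had an unadjusted p under 0.05: Errfi1, which blocks the EGF receptor, stood at 6.67 and 7.01 and 8.39 and 8.58 (1.65, SE 0.26), and Spry4, Phlda1 and Dusp1 between 0.72 and 0.85. Spry2, a relative of Spry4, stood at -0.27. Of the IGF axis (11 of 16 above 0, median 0.29, 0.19 without wild-type 2), Igfbp2, a binding protein, stood at 8.27 and 6.92 in wild-type and 10.17 and 10.31 in knockout (2.64, SE 0.43); its wild-type arrays lay 1.35 apart. Igfbp4 (-0.76) and Igfbp5 (-0.61) were lower. In the PDGF and FGF list 11 of 16 genes lay above 0 (median 0.18, 0.30 without wild-type 1 and 0.05 without wild-type 2). There Fgf7 (1.10) was higher and the receptor Fgfr3 (-0.57) lower at an unadjusted p under 0.05. In the Wnt list the secreted inhibitors Frzb (1.47) and Dkk2 (-1.11) lay on opposite sides of 0 with an unadjusted p under 0.05 each. Notch genes (9 of 17 above 0, median 0.06, -0.10 without wild-type 2) and genes of the renin-angiotensin system (6 of 9, median 0.15, 0.24 without wild-type 1) had few members with such a p: 1 Notch gene, the glycosyltransferase Mfng (-0.63), and 0 genes of the renin-angiotensin system. Ace, the converting enzyme, stood at 9.42 and 9.48 and 9.69 and 9.48 (0.14, SE 0.24).

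Among vasoactive genes, Adm, the vasodilator adrenomedullin that low oxygen induces, stood at 5.98 and 5.05 on the wild-type and 7.64 and 7.17 on the knockout arrays (1.89, SE 0.34). The constrictor Edn1 (1.04), the endothelin receptor Ednrb (1.06) and the natriuretic peptide Nppb (1.03) were also higher at an unadjusted p under 0.05. The nitric oxide synthases Nos3 (6.21 and 6.001 and 5.31 and 5.48, -0.71, SE 0.25) and Nos2 (-0.76) were lower. Of the 24 genes of this list 11 lay above 0, with a median of -0.07 (0.07 without wild-type 1 and -0.14 without wild-type 2), so the differences ran both ways.

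Markers of macrophages had the most even difference of the cell type lists. All 26 measured members lay above 0, with a median of 0.82, and 17 had an unadjusted p under 0.05; both knockout arrays lay above both wild-type arrays in 20. Laptm5, a lysosomal protein of blood cells, stood at 5.49 and 6.20 on the wild-type and 7.62 and 7.42 on the knockout arrays (1.68, SE 0.30). Trem2, a lipid receptor of tissue macrophages, stood at 5.81 and 5.82 and 7.49 and 6.85 (1.35, SE 0.27), and the defining marker Adgre1 at 5.44 and 5.09 and 6.49 and 6.34 (1.14, SE 0.25). The growth factor receptor Csf1r (0.35) and C1qa (0.01), also genes of resident macrophages, had small differences. As the median deviation of the 26 genes from their means over the 8 arrays, the wild-type arrays stood at -0.29 and -0.68 and the knockout arrays at 0.45 and 0.27. Leaving out wild-type ascending replicate 1 gave a median of 1.00, leaving out replicate 2 gave 0.60. In the descending aorta 25 of the 26 genes also lay above 0 (median 0.44), where 53.7% of all genes do. There 6 were higher at an unadjusted p under 0.05, against 3.63% of all genes. In these bulk samples more cells of a type and more RNA of these genes per cell cannot be told apart.

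Neutrophil genes showed the largest single differences among immune genes, in the ascending segment. S100a8 stood at 9.61 and 7.44 on the wild-type and 11.04 and 10.85 on the knockout arrays (2.42, SE 0.61), and its partner S100a9 at 9.17 and 7.23 and 10.31 and 10.12 (2.02, SE 0.53); both encode calprotectin. Retnlg stood at 3.16 and 3.92 and 5.81 and 5.35 (2.04, SE 0.40). Of 13 genes 11 lay above 0 (median 0.98) and 7 had an unadjusted p under 0.05, but the defining surface marker Ly6g stood at -0.49 (SE 0.36) and the chemokine receptor Cxcr2 at 0.57 (SE 0.28). The median was 0.06 in the descending aorta, and the difference between segments had an unadjusted p under 0.05 in 4 of the 13 genes, all more positive in the ascending segment, where 1.62% of all genes do. On single arrays the list deviated by -0.02 and -0.40 in wild-type and by 0.81 and 0.25 in knockout. Lymphocyte and thymus genes (9 of 15 above 0, median 0.07, -0.09 without knockout 1 and 0.29 without knockout 2) and mast cell genes (4 of 10, median -0.08, 0.17 without wild-type 1 and -0.27 without wild-type 2) had medians near that of all genes (-0.01).

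Of 31 chemokine and cytokine genes 27 lay above 0 and 10 had an unadjusted p under 0.05, all higher; the median was 0.46, or 0.27 without wild-type ascending replicate 2. Ccl2 stood at 7.09 and 6.14 on the wild-type and 7.82 and 8.13 on the knockout arrays (1.36, SE 0.34) and Ccl7 at 6.996 and 5.77 and 7.45 and 8.10 (1.39, SE 0.45); both attract monocytes, and their receptor Ccr2 stood at 0.75. Cxcl13, which attracts B cells, stood at 6.36 and 6.73 and 7.97 and 7.80 (1.34, SE 0.28) in the ascending and at 9.11 and 9.55 in wild-type and 8.89 and 8.47 in knockout in the descending aorta (-0.65). Interleukin 6 (Il6, 0.27) and tumour necrosis factor (Tnf, 0.24) had small differences and Il1b stood at 0.96. Of 15 complement genes 12 lay above 0 (median 0.43, 0.71 without wild-type 1, 0.25 without knockout 1 and 0.20 without wild-type 2): C4b stood at 5.01 and 5.54 and 6.87 and 6.62 (1.47, SE 0.29), and the receptor genes C3ar1 (1.52) and C5ar1 (1.05) were also higher at an unadjusted p under 0.05. Of 18 interferon response genes 16 lay above 0 (median 0.51, 0.31 without knockout 1), 6 of them with such a p, led by Irf7 (1.03) and Irf8 (1.05).

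**Figure D5:**
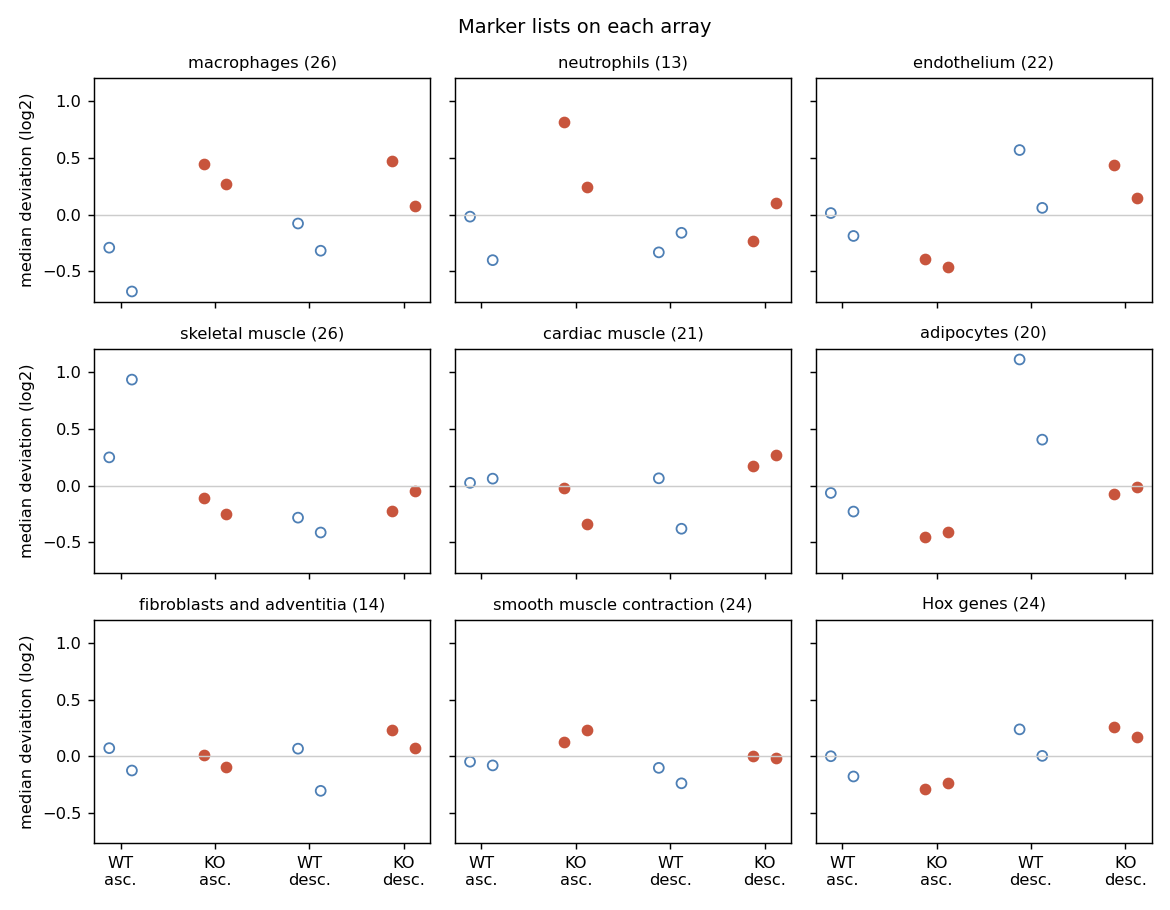
Median deviation of the genes of 9 lists from their means over the 8 arrays (log2, y axis), 1 point per array, open for wild-type and filled for knockout, by genotype (WT, KO) and segment (asc., desc.). The macrophage list is higher on both knockout ascending arrays (0.45 and 0.27) than on both wild-type arrays, the endothelial and skeletal muscle lists are lower, and wild-type ascending replicate 2 is the highest array for skeletal muscle (0.93).

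Endothelial genes lay on both sides of 0 in the ascending aorta, more of them lower. Of 22 measured members 14 lay below 0 (median -0.33, -0.19 without knockout 2), 8 lower and 0 higher at an unadjusted p under 0.05. Cldn5, the tight junction protein of endothelium, stood at 7.32 and 6.61 on the wild-type and 6.002 and 5.51 on the knockout arrays (-1.21, SE 0.35), Pecam1 at 8.93 and 8.66 and 8.20 and 8.09 (-0.65, SE 0.25), and Vwf, von Willebrand factor, at 7.58 and 7.33 and 6.78 and 6.50 (-0.81, SE 0.26). Cdh5, the junctional cadherin, stood at -0.95 (SE 0.39), Emcn at -0.74 and the VEGF receptor Kdr at -0.87 (SE 0.41). Other endothelial genes lay on the other side: the VEGF receptor Flt1, which is not in the list, stood at 5.86 and 5.98 and 6.91 and 7.42 (1.24, SE 0.28), the TGF-beta coreceptor Eng at 0.77 and the transcription factor Erg at 0.70. Genes known from the same cells thus lay on both sides of 0. The list deviated by 0.01 and -0.19 on the wild-type and by -0.39 and -0.46 on the knockout arrays. The descending median was 0.01, and 3 of the 22 genes had an unadjusted p under 0.05 for the difference between segments, all more negative in the ascending one (1.68% of all genes).

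Skeletal muscle genes, which are not genes of the aortic wall, had the lowest median of all 62 lists, -0.60, with 24 of 26 below 0, 10 lower and 0 higher at an unadjusted p under 0.05. Acta1, the skeletal actin, stood at 9.48 and 11.11 on the wild-type and 8.88 and 7.07 on the knockout arrays (-2.32, SE 0.62), and Tnnt3, the fast troponin T, at 7.62 and 9.23 and 7.03 and 6.34 (-1.74, SE 0.47). Myf6, a myogenic transcription factor, stood at -0.96 (SE 0.38). The list deviated by 0.25 and 0.93 on the 2 wild-type arrays and by -0.11 and -0.25 on the knockout arrays, so wild-type replicate 2 was the highest. Its median was -0.41 without that array and -0.87 without replicate 1. Adipocyte genes also stood lower, with 17 of 20 below 0 and a median of -0.34: Adipoq had 7.27 and 5.73 in wild-type and 5.28 and 4.36 in knockout (-1.68, SE 0.50). At an unadjusted p under 0.05 there were 2 lower and 1 higher, Pnpla2 (0.89). In the descending aorta 19 of the 20 adipocyte genes lay below 0 (median -0.62), with 7 lower and 0 higher at such a p. Cardiac muscle genes lay on both sides (12 of 21 below 0, median -0.13, 0.00 without wild-type 1 and -0.27 without knockout 1), with Sln at -2.09 and Nppb at 1.03. The part that muscle and fat attached to the dissected segment have in the other differences was not tested.

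Fibroblast and adventitial genes (8 of 14 below 0, median -0.05, 0.12 without wild-type 1 and -0.15 without wild-type 2), pericyte genes (6 of 10 above 0, median 0.07, 0.46 without wild-type 1 and -0.03 without wild-type 2) and genes of the nervous system (7 of 14 above 0, median -0.02, 0.08 without wild-type 1) lay on both sides of 0. Thy1 (0.90) was the 1 fibroblast gene, and Ndufa4l2 (7.55 and 7.57 in wild-type and 9.30 and 8.51 in knockout, 1.35), which low oxygen induces, and Cspg4 (0.71) the 2 pericyte genes at an unadjusted p under 0.05. Genes of the mesothelium were mostly lower (8 of 12 below 0, median -0.26, -0.04 without wild-type 1 and -0.46 without wild-type 2). At an unadjusted p under 0.05 there were 1 lower, Upk3b (-0.91), and 1 higher, the keratin gene Krt18 (0.82).

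Positional genes of the Hox clusters were lower in the knockout ascending aorta in 18 of 24 cases, with a median of -0.22 and 2 at an unadjusted p under 0.05, Hoxb7 (4.38 and 3.79 in wild-type and 3.34 and 3.15 in knockout, -0.84) and Hoxa7 (-0.62). Hoxa5 stood opposite, at 0.70 (SE 0.45). Over the 8 arrays these genes have a median level at percentile 46.7, and all genes around that level, in the middle of the 5 bins, have a median of -0.06. Of 26 transcription factors of the outflow tract and neural crest 17 lay below 0 (median -0.13, -0.04 without wild-type 1 and -0.29 without wild-type 2), with Foxf1 and Msx2 (-0.93) at an unadjusted p under 0.05. The outflow tract factors Hand2 (0.16, SE 0.25) and Gata6 (-0.23, SE 0.25) had differences within their SE.

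Stress and metabolic genes had moderate, mostly positive differences. All 23 hypoxia and glycolysis genes lay above 0 (median 0.43, 0.65 without wild-type 1) and 6 had an unadjusted p under 0.05. Pgk1, a glycolytic enzyme, stood at 7.17 and 7.10 on the wild-type and 8.29 and 8.16 on the knockout arrays (1.09, SE 0.23), the glucose transporter Slc2a1 at 0.83 and the oxygen-sensing hydroxylase Egln3 at 1.11. All 13 heat shock genes lay above 0 as well (median 0.53, 0.11 in the descending aorta), with the inducible chaperone Hspa1b at 5.05 and 5.42 and 6.30 and 6.32 (1.07, SE 0.40). In the unfolded protein response list 22 of 23 members lay above 0 (median 0.43), and the 5 with an unadjusted p under 0.05 were chaperones and folding enzymes of the endoplasmic reticulum or its degradation machinery: Calr (0.85), Canx (0.91), Dnajb11 (0.96), Pdia3 (0.65) and Syvn1 (0.73). The stress transcription factors Atf4 (0.16), Ddit3 (0.27) and Xbp1 (0.22) had small differences. Of 16 genes of the p53 response and apoptosis 14 lay above 0 (median 0.40), with Gadd45g (5.52 and 4.74 and 6.70 and 6.60, 1.52) and the cell cycle inhibitor Cdkn1a (6.38 and 6.60 and 7.30 and 7.84, 1.08, SE 0.33) at an unadjusted p under 0.05. Cell cycle genes themselves had a median of 0.04 in the ascending aorta (21 of 33 above 0, 0.27 without wild-type 1 and -0.11 without wild-type 2) and 0.51 in the descending aorta.

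Of 20 antioxidant genes 15 lay above 0 (median 0.41). Beside Mt2, which stood at 10.02 and 10.59 on the wild-type and 11.96 and 12.04 on the knockout arrays, Hmox1, the heme oxygenase, stood at 8.32 and 8.73 and 10.32 and 10.87 (2.07, SE 0.39) and Mt1 at 0.76. The cholesterol list had a median of 0.51, and its members differed: Hmgcs1, which makes the substrate of the rate-limiting reductase, stood at 5.35 and 6.12 and 7.21 and 7.35 (1.54, SE 0.31), Msmo1 at 1.12 and Cyp51 at 1.06. Of its 19 members 13 lay above 0 and 6 below, and 6 had an unadjusted p under 0.05; fatty acid synthesis genes (9 of 13 above 0, median 0.22, -0.05 without wild-type 2) had 0. Metallothionein promoters hold metal response elements (TGCACNC or TGCGCNC) and those of cholesterol genes sterol regulatory elements (searched as TCACNCCAC). The former were found in 14.7% of all promoters and in 4 of 19 of this antioxidant list (21.1%), the latter in 0.639% of all promoters and in 1 of 20 of the cholesterol list (5.0%), that of Hmgcs1. These shares describe the lists and not the knockout. The promoters of Mt2 (chr8:94172468-94172617, plus strand, 2 matches) and Hmgcs1 (chr13:119690201-119690350, plus strand) are shown for the gene with the smallest p of each list, with the matches in capitals.
Mt2: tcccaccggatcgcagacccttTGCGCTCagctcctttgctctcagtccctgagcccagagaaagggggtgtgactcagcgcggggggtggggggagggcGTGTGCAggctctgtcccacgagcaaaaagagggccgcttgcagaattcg
Hmgcs1: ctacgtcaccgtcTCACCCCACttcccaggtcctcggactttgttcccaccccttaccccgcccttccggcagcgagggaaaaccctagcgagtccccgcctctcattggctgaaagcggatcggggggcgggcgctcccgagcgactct

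Lysosomal genes had 15 of 17 members above 0 and a median of 0.47 at high levels (median at percentile 95.9), led by the protease Lgmn (1.00), with the cholesterol transporter Npc1 at 0.71. Mitochondrial respiration genes, equally bright (10 of 18 above 0, median 0.10, 0.26 without wild-type 1 and -0.08 without wild-type 2), held 0 with an unadjusted p under 0.05. Ribosomal protein genes (7 of 16 above 0, median -0.01, 0.11 without wild-type 1 and -0.13 without wild-type 2) lay at percentile 99.6 of level. Lists of bright genes therefore ranged from the median of all genes to well above that of the brightest bin.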

How the data were processed

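The authors deposited 1 log2 value per probe set and array, which per the submitters' processing notes came from RMA in Affymetrix Expression Console (version and build: not given in the sources used here). This step is meant to subtract background, normalise arrays to each other and combine probes, and it compresses differences of dim probes. The deposited values of the 2 wild-type replicate 2 arrays still differed from the others in median over all probe sets and in spread. RNA was amplified from 5 ng per pool, per the labels' protocols. Of 41345 probe sets, 23521 had 1 gene symbol in the platform annotation, 1814 several and 16010 were not named there; 1082 genes had several and were represented by the brightest, so 22180 genes were tested, 21994 of them matched to RefSeq (GRCm38.p6) by gene identifier. limma 3.58.1 (R 4.3.3) was fitted to 8 arrays in 4 groups (4 residual, 5.52 prior degrees of freedom), tested on simulated data, with calls at a Benjamini-Hochberg adjusted p under 0.05. With 2 arrays against 2, an exact permutation test cannot go below 0.333, so none was used.

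Genes were named by rule: the 15 higher and 15 lower with the smallest p among genes at or above the median level (5.03) whose groups do not overlap, 5 each below it, the 8 with the smallest p between segments, up to 6 members of each of 62 lists (1102 of 1204 entries measured) and a vessel wall set. Predicted genes, small RNAs, receptor families and antigen receptor segments were left out of the ranking. Another 36 genes were named after their values were seen. The members and lists were chosen with earlier results of these data known. Alternatives were the scaling, the filter on dim genes, the choice of probe set, the replicate block, fit options and leaving out arrays. Plots used Python 3.11.15 and matplotlib 3.10.9.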

Additional observations from a re-analysis of the deposited data

Results flagged for a closer look

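Skeletal muscle genes stood on opposite sides in the 2 segments: the median of the list was -0.60 in the ascending and 0.17 in the descending aorta. In the ascending segment both wild-type arrays (median deviations 0.25 and 0.93) lay above both knockout arrays (-0.11 and -0.25), and in the descending segment both (-0.28 and -0.41) lay below (-0.22 and -0.05). Cardiac muscle genes did the same, with medians of -0.13 and 0.49; the ascending wild-type arrays deviated by 0.02 and 0.06 and the knockout arrays by -0.02 and -0.34, the descending ones by 0.06 and -0.38 in wild-type and 0.17 and 0.27 in knockout. The difference between segments was not tested for either list. Among single members, an unadjusted limma p under 0.05 for the difference between segments was found in 10 of 26 skeletal and 4 of 21 cardiac muscle genes, all more negative in the ascending aorta, as in 1.68% of all genes.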

How the results depend on the processing

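limma called 0 genes in the ascending aorta also with each array centred on its median, after a second quantile normalization, with probe sets of a gene averaged, with every row of the table, with array weights and with only the 4 ascending arrays. It called 1 gene, Col8a1, without the dimmest 25% of genes and at an adjusted p under 0.1, and 4 with the trend and robust options (Col8a1, Mt2, Vegfd and Thbs1). Leaving out 1 array at a time gave 0 to 14 calls: 11 without wild-type ascending replicate 1 (Igfbp2, S100a8 and S100a9 among them), 14 without replicate 2 (Col8a1 and Itga11 among them), 1 (Col8a1) without wild-type descending replicate 1 or 2 and 0 without any 1 knockout array. Without both wild-type replicate 2 arrays it called 11, and 1 for the difference between segments, which had 0 calls in the other settings. With 1 array left out there were 1034 to 2931 genes at an unadjusted p under 0.05 (578 to 1478 higher, 456 to 1590 lower), and without both wild-type replicate 2 arrays there were 3933 (1907 higher, 2026 lower). Lower genes numbered 464 without the dimmest 25% and 1360 over every row of the table, and centring gave 1326 higher and 670 lower. Across genes, deviations of same-numbered arrays correlated at 0.04 between the ascending groups, 0.29 between the wild-type groups and -0.08 to 0.12 in the other 4 pairs of groups (Pearson), and the labels give the number no meaning, so it was not taken as a pairing; with the replicate number as a block limma called 0, with 2131 genes at an unadjusted p under 0.05 (1220 higher, 911 lower). Of 222 genes with values in the text, 219 kept their sign in 17 alternatives, which for groups that do not overlap follows from the choice. Several alternatives cannot change a sign, because they leave the ascending difference of a gene as it is. These are the filter on dim genes, the replicate block, the array weights and the trend and robust options. The fit to the 4 ascending arrays and leaving out a descending array are of this kind too. Ace (-0.018), C1qa (-0.0996) and Jun (-0.0653) were below 0 after quantile normalization, and C1qa and Jun also without both wild-type replicate 2 arrays (-0.281 and -0.0427); with 1 array left out C1qa ranged from -0.281 to 0.296 and Jun from -0.240 to 0.384. Of the 62 list medians 42 kept their sign, which the same alternatives, apart from the filter, cannot change either. The other 20 lay between -0.13 and 0.22. Probe signal over background was not analysed here. The causes were not tested.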

Other observations

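Retinoic acid genes, which pattern the outflow tract, lay on both sides of 0 in the ascending aorta (5 of 13 above, median -0.12, 0.05 without wild-type 1 and -0.24 without wild-type 2). The receptor Rarb, itself a target of retinoic acid, stood at 5.80 and 5.43 on the wild-type and 4.83 and 4.71 on the knockout arrays (-0.85, SE 0.27), while the synthesising enzyme Aldh1a3 (4.26 and 4.32 and 4.88 and 5.11, 0.71) and Dhrs3 (7.69 and 7.89 and 8.50 and 8.53, 0.73), which turns retinal back into retinol, were higher, each at an unadjusted limma p under 0.05. Of 17 clock genes 13 lay above 0 (median 0.17, 0.28 without wild-type 1 and 0.00 without wild-type 2), with Per1 at 0.76 (SE 0.26). Of 15 cartilage and bone genes 11 lay below 0 (median -0.10, -0.23 without knockout 1 and 0.00 without knockout 2), with Alpl and Acan on opposite sides. Erythroid and platelet genes had a median of 0.06 (5 of 8 above 0, 0.26 without wild-type 1 and 0.30 without knockout 1), with the platelet chemokine Ppbp at 0.81. Xist, which marks female cells, stood at 8.78 and 8.65 on the wild-type and 8.93 and 9.28 on the knockout ascending arrays, so female tissue was present in all 4 pools. Uty (0.04), Kdm5d (-0.45) and Eif2s3y (0.06), genes of the Y chromosome, had an unadjusted limma p above 0.05. The balance of the sexes between the pools was not tested.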
